A study of Mus musculus with 7 samples.

Results

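The colony stimulating factor family was examined in macrophages taken from injured mouse nerve, as the 7 genes that encode the receptors Csf1r, Csf2ra, Csf2rb, Csf2rb2 and Csf3r and the ligands Csf1 and Il34, out of 23361 genes in the expression table. The rule for the set used the names of the genes. The left sciatic nerve of wild-type BALB/cJ mice was cut and repaired with an inert conduit, and macrophages were sorted by flow cytometry from the tissue bridge that grew inside the conduit, with a gate of Lin-F4/80+CD14+CD11b+CD16/32+. The lineage antibodies included those against Ly6G (granulocytes), Siglec F (eosinophils) and Thy1.2 (fibroblasts). RNASeq libraries numbered 3 on day 5, 2 on day 14 and 2 on day 28, and the series calls them independent biological replicates. The sources used here do not say whether a library came from 1 mouse or a pool, and give no age or sex for these animals. No uninjured nerve and no other genotype was part of the time course, so every comparison is between days.

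Colony stimulating factors are the cytokines that make, sustain and activate myeloid cells. CSF1 (M-CSF) keeps macrophages alive through CSF1R, a receptor tyrosine kinase on monocytes and macrophages that also binds IL-34, a ligand known from neurons and keratinocytes. GM-CSF (Csf2) binds the alpha subunit CSF2RA, which signals with the common beta subunit CSF2RB, shared with the receptors for IL-3 and IL-5. Mice carry a second beta gene, Csf2rb2, whose product serves IL-3 only. G-CSF (Csf3) binds CSF3R and drives neutrophil production, and monocytes carry the receptor too.

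The libraries held 18027190 to 35247116 fragments assigned to genes, and between 13209 and 14047 genes stood above a floor of 3 fragments. Levels are given as FPKM, fragments scaled by transcript length and library size, which allows genes to be compared. Changes are log2 fold changes from edgeR's quasi-likelihood test, fitted to the fragments of all 7 libraries together, with p adjusted by Benjamini-Hochberg over 12858 genes tested, and a gene was called at an adjusted p under 0.05. The genes of the sort antigens were present in every library, with FPKM of 195 to 470 for Emr1 (F4/80), 1431 to 3003 for Cd14, 201 to 397 for Itgam (CD11b) and 232 to 276 for Fcgr3 (CD16). The 2 libraries of day 14 stood apart. Over 7556 genes, replicate 1 lay nearer to the day 5 mean (root mean square log2 distance 0.331, against 0.437 to day 28), whereas replicate 2 lay nearer to day 28 (0.3, against 0.501 to day 5). In bulk RNA, fewer cells of a type and less RNA per cell cannot be told apart.

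Sequences upstream of Csf1, Csf2ra and Csf3r, the members that edgeR called with all 7 libraries, are shown first. For Csf1, Csf2ra, Csf2rb2 and Csf3r, 4 members with a start in the RefSeq table of GRCm38.p6, the 250 bases before the start were searched on both strands for GAGGAA, a core letter string of the myeloid factor PU.1, for a form of the NF-kB site that runs GGG, any 2 bases and TTTCC, and for TTNNGNAA, a form of the C/EBP site. Capitals mark the PU.1 and NF-kB strings in the promoters of Csf1 (chr3:107760470-107760719, minus strand) and Csf2ra (chr19:61228419-61228668, minus strand), and in 30 bases of Csf3r (chr4:126024561-126024590, plus strand), where an annotated transcript already begins.
Csf1: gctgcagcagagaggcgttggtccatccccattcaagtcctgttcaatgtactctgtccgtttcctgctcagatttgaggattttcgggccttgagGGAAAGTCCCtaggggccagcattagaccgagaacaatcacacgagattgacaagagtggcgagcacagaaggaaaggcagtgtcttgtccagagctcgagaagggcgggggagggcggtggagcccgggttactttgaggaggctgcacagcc
Csf2ra: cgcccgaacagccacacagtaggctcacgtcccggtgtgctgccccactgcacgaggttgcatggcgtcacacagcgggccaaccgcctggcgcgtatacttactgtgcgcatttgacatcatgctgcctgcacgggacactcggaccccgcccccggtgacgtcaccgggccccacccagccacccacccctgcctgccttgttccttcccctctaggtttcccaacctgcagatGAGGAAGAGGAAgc
Csf3r: cctccttcctgaGAGGAAggggctgtctat

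The Csf2ra promoter held the PU.1 string in tandem, 14 and 8 bases before the start, and the C/EBP string 31 bases before it. The annotated gene begins within the first of the tandem strings, so that the second lies inside it. In Csf3r the PU.1 string began 86 bases before the start and in Csf2rb2 167 bases before it, and Csf1 held the NF-kB string 154 bases before its start with no PU.1 string in the window. Of 32851 promoters of the same length, 23.3% held the PU.1 string, 36.8% the C/EBP string and 1.4% the NF-kB string. The matches are descriptions of the letters in these windows. Csf2rb2 was searched although edgeR did not call it with all libraries, and Csf1r was not searched.

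Csf1r was the most abundant member in every library (ENSMUSG00000024621, chr18:61100598-61132149 in GRCm38, plus strand). Its FPKM was 434, 411 and 406 in replicates 1 to 3 of day 5, 493 and 454 at day 14, and 423 and 470 at day 28. By mean FPKM the gene ranked 218 of 23361 at day 5, 171 at day 14 and 187 at day 28. Both day 14 libraries stood above the 3 of day 5, and the day 28 libraries overlapped both earlier days. The day means were 417 ± 15.0 (SD, n = 3), 474 ± 28.0 (n = 2) and 447 ± 33.2 (n = 2). The log2 fold change was 0.19 (SE 0.12) from day 5 to 14 and 0.11 (SE 0.12) from day 5 to 28, with adjusted p of 0.352 and 0.552 by edgeR. No change of the CSF1 receptor was resolved at this number of libraries.

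Csf1, the ligand of that receptor, was the member that rose between days 5 and 14 (ENSMUSG00000014599, chr3:107741048-107760469, minus strand). Its FPKM was 8.87, 12.6 and 9.92 at day 5, 24.8 and 22.7 at day 14, and 13.8 and 13.4 at day 28. Day 14 stood above all other libraries, day 28 lay between, and no pair of days overlapped. From a mean of 10.5 ± 1.92 at day 5 the level reached 23.8 ± 1.48 at day 14, a 2.27-fold difference in mean FPKM (log2 fold change 1.14, SE 0.13, adjusted p = 0.00819 by edgeR). Csf1 was the 1 member called of 6 tested in this comparison, where 4.78% of all genes tested were called and 2.84% were called higher. The call held whichever library was left out, with log2 fold changes of 1.04 to 1.26. It was lost when the replicate number was added to the fit as a block (1.12, adjusted p = 0.0658 by edgeR).

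From day 14 to day 28, Csf1 was lower by 0.75 on the log2 scale (SE 0.15), which edgeR did not call (adjusted p = 0.0880). No member was called between these days, against 0.0622% of all genes, which is 8 genes. A total of 1570 genes had an unadjusted p under 0.05, and DESeq2 called 346, among them Csf1 (adjusted p = 0.00214) and Csf3r (adjusted p = 0.00296). At day 28 the mean of 13.6 ± 0.28 was above that of day 5 by 0.38 on the log2 scale (SE 0.13, edgeR adjusted p = 0.0806). Csf1r FPKM stood at 32.6 to 49.0 times that of Csf1 in the day 5 libraries, at 19.9 and 20 times at day 14, and at 30.7 and 35.1 times at day 28.

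**Figure D1:**
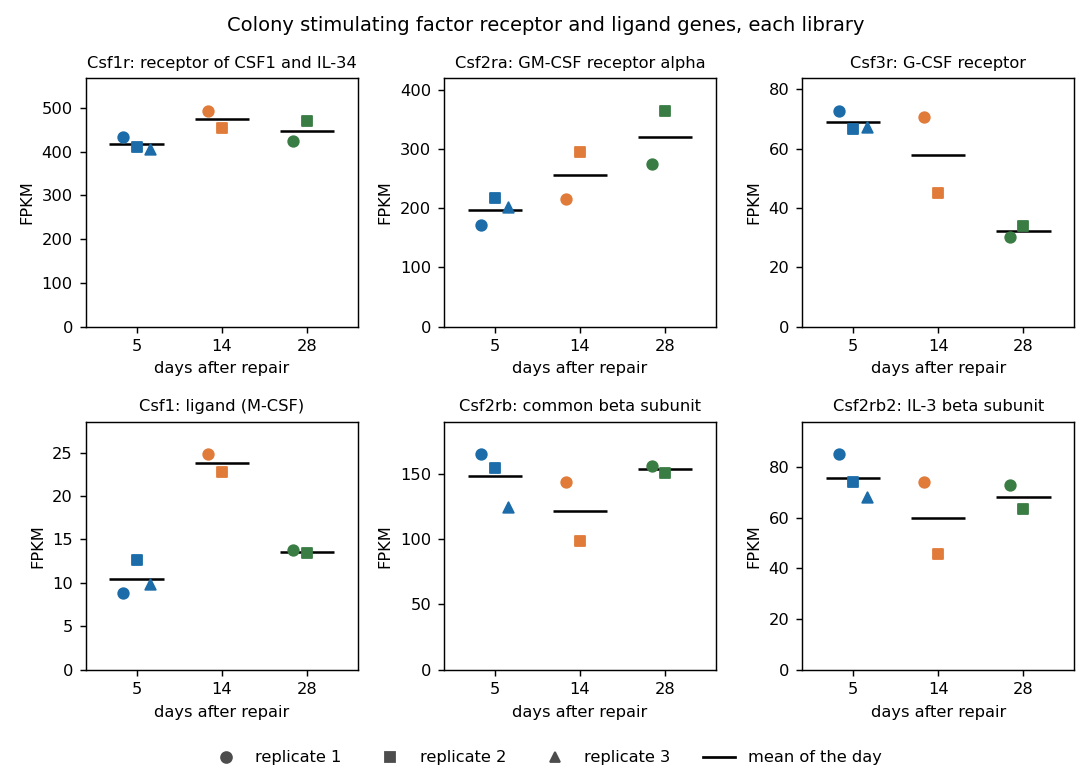
FPKM (vertical axes, from 0) of the 6 members with fragments in all libraries, against days after repair; each point is a library with its replicate number as shape, and each line is the mean of the day. Csf1 peaks in both day 14 libraries (24.8 and 22.7), Csf2ra is highest at day 28 and Csf3r lowest at day 28, while Csf1r stays between 406 and 493.

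Il34, the other ligand of CSF1R, was not detected above the floor (ENSMUSG00000031750, chr8:110741829-110805924, minus strand). It had 0 fragments in the 3 libraries of day 5, in day 14 replicate 1 and in day 28 replicate 1, 2 fragments in day 14 replicate 2 and 1 in day 28 replicate 2. The gene was not tested. Of the further receptors that IL-34 binds, Ptprz1 had 0 fragments in every library and the proteoglycan Sdc1 was abundant. Sdc1 FPKM was 54.8, 51.6 and 33.7 at day 5, 63.4 and 93.9 at day 14, and 126 and 98.1 at day 28. All libraries of the later days stood above day 5, and Sdc1 rose by day 28 (log2 fold change 1.28, SE 0.23, adjusted p = 0.00867 by edgeR). The call was lost without day 28 replicate 1 (1.08, adjusted p = 0.0876).

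Csf2ra, the subunit that binds GM-CSF, rose between days 5 and 28 (ENSMUSG00000059326, chr19:61223957-61228429, minus strand). Its FPKM was 172, 217 and 202 at day 5, 216 and 296 at day 14, and 275 and 365 at day 28. Both day 28 libraries stood above all of day 5, while day 14 replicate 1 lay among the day 5 values and replicate 2 among those of day 28. The means were 197 ± 22.8, 256 ± 56.4 and 320 ± 63.8, and the last exceeded the first 1.62-fold (log2 fold change 0.71 with SE 0.18, adjusted p = 0.0286 by edgeR). Csf2ra and Csf3r were the 2 members called of 6 tested in this comparison, where 15.2% of all genes tested were called, 7.74% higher and 7.51% lower. The step from day 5 to 14 was 0.39 (adjusted p = 0.224) and that from day 14 to 28 was 0.32 (adjusted p = 0.548). Without day 14 replicate 1 these steps were 0.60 (adjusted p = 0.0480) and 0.11, and without day 14 replicate 2 they were 0.14 (adjusted p = 0.779) and 0.57. From day 14 to 28 the step was 0.10 without day 28 replicate 2 and 0.51 without day 28 replicate 1. The call between days 5 and 28 was lost without any 1 of the 5 libraries of those days, with adjusted p of 0.103, 0.0609 and 0.0759 without day 5 replicates 1, 2 and 3, and of 0.0598 and 0.172 without day 28 replicates 1 and 2. The log2 fold change then ran from 0.49 to 0.90, and stayed positive in each fit.

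For the beta subunits that partner Csf2ra no rise was called. Csf2rb (ENSMUSG00000071713, chr15:78325752-78353847, plus strand) had FPKM of 165, 155 and 124 at day 5, 144 and 98.7 at day 14, and 156 and 151 at day 28. Csf2rb2 (ENSMUSG00000071714, chr15:78282507-78305721, minus strand) had 85.1, 74.1 and 68.0 at day 5, 74.0 and 45.8 at day 14, and 72.9 and 63.4 at day 28. Day 14 replicate 2 was the lowest library for both genes, and the values of days 5 and 28 overlapped for both. From day 5 to 28 the log2 fold change was 0.06 (SE 0.18) for Csf2rb and -0.14 (SE 0.19) for Csf2rb2, with adjusted p of 0.840 and 0.671 by edgeR. From day 5 to 14 it was -0.28 and -0.33 with both libraries of day 14 (adjusted p = 0.382 and 0.340). Without day 14 replicate 1, which leaves replicate 2 alone on the assumption that it varies like the other days, these differences were -0.57 and -0.71 and both were called (adjusted p = 0.0474 and 0.0152). Without day 14 replicate 2 they were -0.033 and -0.027 (adjusted p = 0.954 and 0.959), so the size of both differences rested on day 14 replicate 2.

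The beta genes lie 20031 bp apart on chromosome 15, on opposite strands, and share most of their coding sequence. Their aligned coding sequences differed at 125 of 2628 bases, an identity of 95.2%, and 413 windows of 75 bases occurred in both, 15.8% of the windows of Csf2rb and 16.1% of those of Csf2rb2. Reads from such windows cannot be placed by their letters, and how the authors shared them is not given in the sources used here. The longest run that is the same in both is 242 bases long and lies within 1 exon of each, at chr15:78348577-78348818 of Csf2rb and chr15:78284630-78284871 of Csf2rb2. It is shown with the 75 bases in which the genes differ most, at chr15:78338905-78338979 and chr15:78294352-78294426 of GRCm38, where capitals mark the 14 bases that differ.
Shared run: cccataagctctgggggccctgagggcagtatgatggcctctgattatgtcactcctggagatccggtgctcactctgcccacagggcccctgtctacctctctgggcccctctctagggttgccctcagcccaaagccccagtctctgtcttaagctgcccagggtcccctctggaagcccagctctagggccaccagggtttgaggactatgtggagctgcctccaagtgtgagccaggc
Csf2rb: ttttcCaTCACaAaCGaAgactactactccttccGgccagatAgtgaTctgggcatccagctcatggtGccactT
Csf2rb2: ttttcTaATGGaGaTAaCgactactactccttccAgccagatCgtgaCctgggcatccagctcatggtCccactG

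The ratio of Csf2rb to Csf2rb2 FPKM stayed between 1.83 and 2.38 in the 7 libraries. It was 1.83 to 2.09 at day 5, 1.95 and 2.16 at day 14, and 2.14 and 2.38 at day 28. The ratio of alpha to common beta subunit, Csf2ra over Csf2rb, was 1.04 to 1.62 at day 5, 1.5 and 3.00 at day 14, and 1.77 and 2.42 at day 28. The day 28 ratios stood above all of day 5, with day 14 spread across both.

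**Figure D2:**
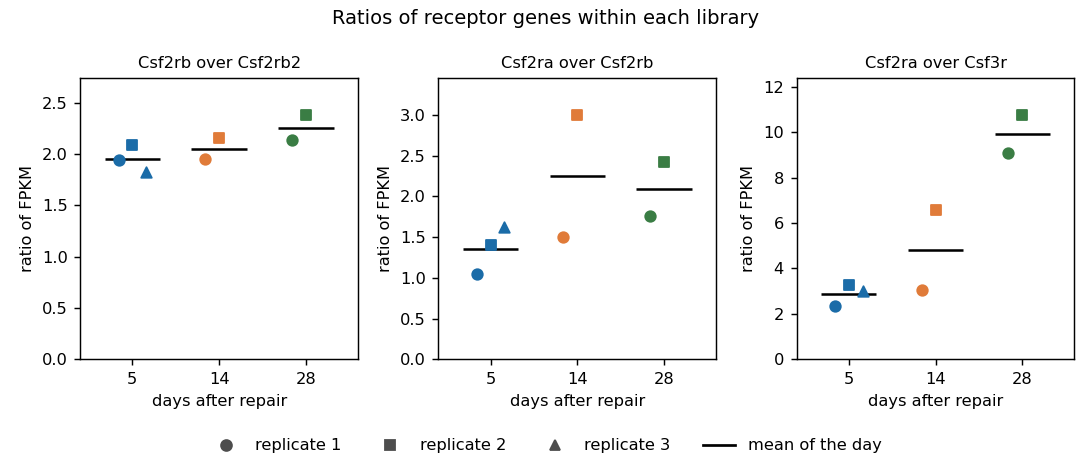
Ratio of FPKM (vertical axes, from 0) of pairs of receptor genes within each library, against days after repair; points are libraries and lines the mean of the day. Csf2rb over Csf2rb2 stays near its mean of 1.95 to 2.26 on each day, whereas Csf2ra over Csf3r goes from 2.37 to 3.26 at day 5 up to 9.09 and 10.7 at day 28.

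Csf3r, the G-CSF receptor, fell between days 5 and 28 (ENSMUSG00000028859, chr4:126024550-126044440, plus strand). Its FPKM was 72.7, 66.6 and 67.1 at day 5, 70.5 and 45.1 at day 14, and 30.2 and 34 at day 28. Both day 28 libraries stood below all others, day 14 replicate 1 lay within the day 5 values, and day 14 replicate 2 lay between the early and the late level. From 68.8 ± 3.39 at day 5 the mean came to 57.8 ± 17.9 at day 14 and 32.1 ± 2.64 at day 28. The difference between days 5 and 28 was -1.09 on the log2 scale (SE 0.18, adjusted p = 0.00581 by edgeR), and the ratio of mean FPKM was 0.466. The call was lost only without day 28 replicate 1 (-1.0, adjusted p = 0.0691).

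The step from day 14 to 28 was -0.84 (SE 0.19, adjusted p = 0.123 by edgeR) and rested on the choice of the day 14 library. Without day 14 replicate 2 it was -1.13 (adjusted p = 0.00122), and without replicate 1 it was -0.49 (adjusted p = 0.229). From day 5 to 14 the difference was -0.24 (adjusted p = 0.432 by edgeR). It was -0.59 without day 14 replicate 1 and 0.043 without day 14 replicate 2, so its direction also rested on the choice of the day 14 library. Csf2ra FPKM stood at 2.37 to 3.26 times that of Csf3r at day 5, at 3.07 and 6.56 times at day 14, and at 9.09 and 10.7 times at day 28.

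**Figure D3:**
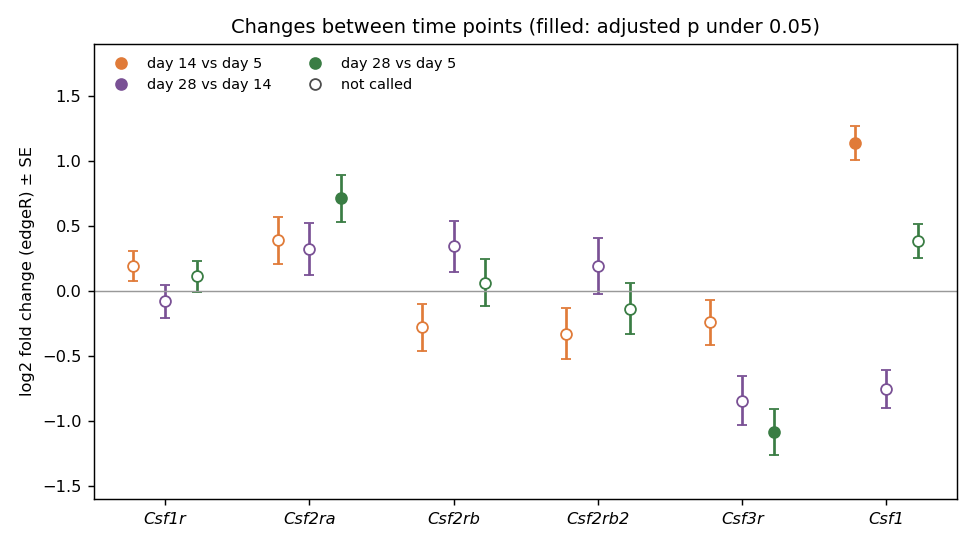
Log2 fold changes from edgeR with their SE (vertical axis) for the 6 members tested, in the 3 comparisons between days; filled points have an adjusted p under 0.05. Csf1 is called from day 5 to 14 (1.14), and Csf2ra (0.71) and Csf3r (-1.09) from day 5 to 28.

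By FPKM the order Csf1r, Csf2ra, Csf2rb, Csf2rb2, Csf3r, Csf1 and Il34 held for the means over the 7 libraries. The ranges of Csf2ra (172 to 365) and Csf2rb (98.7 to 165) did not overlap, nor did those of Csf1r (406 to 493) and Csf2ra. The neighbours Csf2rb2 (45.8 to 85.1) and Csf3r (30.2 to 72.7) overlapped. Csf1 at 8.87 to 24.8 lay below the receptors in every library.

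The ligands of the GM-CSF and G-CSF receptors were measured in the same cells. Csf3, which encodes G-CSF, had FPKM of 86.1, 86.0 and 44.7 at day 5, 24.1 and 4.79 at day 14, and 5.74 and 12.5 at day 28. Every later library stood below day 5, and Csf3 fell by 3.01 on the log2 scale from day 5 to 28 (SE 0.62, adjusted p = 0.0145 by edgeR). That call was lost without day 28 replicate 1 (-2.52, adjusted p = 0.140) and without day 28 replicate 2 (-3.64, adjusted p = 0.0517). The difference from day 5 to 14 was -2.34 (adjusted p = 0.0567, and 0.0446 by DESeq2).

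Csf2, which encodes GM-CSF, was scarce, with 3, 1 and 4 fragments in the day 5 libraries, 28 and 19 at day 14, and 11 and 21 at day 28. The later libraries all held more fragments than those of day 5, which lay near the floor. By edgeR the adjusted p was 0.0562 from day 5 to 14 and 0.0872 from day 5 to 28, and by DESeq2 the first was 0.0117. Il3 and Il5, the other cytokines of the common beta subunit, had 0 fragments in all libraries. Of their own alpha subunits, Il3ra had FPKM of 18.3 to 19.5 at day 5, 25.7 and 23.9 at day 14, and 22.1 and 24.9 at day 28 and was not called (adjusted p = 0.0846 and 0.0993 against day 5), whereas Il5ra had 1 to 24 fragments and was not tested. Of the 8 genes of this group, 4 were tested, and 1 rose and 1 fell between days 5 and 28. Over all genes tested, 15.2% were called in that comparison, 7.74% higher and 7.51% lower.

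Below CSF1R, the adaptors and kinases that carry its signal were present on all days. Of 21 such genes, all tested, 4 rose and 2 fell between days 5 and 28, with a median log2 fold change of -0.16 against 0.03 over all genes, and 0 rose and 2 fell between days 5 and 14. The shares called over all genes, against which the counts of this and the next lists are to be read, were 15.2% and 4.78% in these comparisons. The Src family kinases Src and Fyn were among those that rose. Src went from FPKM 19.0 ± 7.57 at day 5 to 40.4 ± 0.369 at day 28 (log2 fold change 1.10, adjusted p = 0.0214), and Fyn from 15.8 ± 0.164 to 24.3 ± 2.58 (0.64, adjusted p = 0.00555). The genes that fell were Sos1, an exchange factor that activates Ras (-0.48, adjusted p = 0.0378), and Pik3ca, a catalytic subunit of PI3 kinase (-0.46, adjusted p = 0.0195).

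Of 13 genes that act with JAK2 and STAT5 below the beta subunits and CSF3R, 1 rose and 3 fell between days 5 and 28 (median -0.30). Between days 5 and 14 edgeR called 0 of them, 3 had an unadjusted p under 0.05 and DESeq2 called 1. Socs3, which damps signalling by the G-CSF receptor, had FPKM of 775 ± 200 at day 5, 592 ± 411 by day 14 and 251 ± 53.0 by day 28 (-1.62, adjusted p = 0.0291). Socs2, a STAT5 target, rose from 1.11 ± 0.120 to 3.01 ± 0.500 (1.45, adjusted p = 0.0193), and the survival gene Bcl2l1 fell (-0.63, adjusted p = 0.0383). Of 8 genes that regulate transcription of Csf1r or cleavage of its product, 1 rose and 2 fell between days 5 and 28 (median -0.39), and 1 fell between days 5 and 14. The transcription factor Cebpa rose (0.58, adjusted p = 0.0426), Ets2, a transcription factor downstream of Ras, fell from 182 ± 4.45 to 93.3 ± 4.81 (-0.95, adjusted p = 0.00200), and Rhbdf2, a partner of the sheddase ADAM17, fell (-0.94, adjusted p = 0.0309).

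A list of 7 genes known to respond to GM-CSF in myeloid cells had 3 that rose, 0 that fell and a median of 1.46 between days 5 and 28, and 2 that rose between days 5 and 14. Itgax, which encodes CD11c, had FPKM of 10.4 ± 6.81 at day 5, 102 ± 96.4 at day 14 and 281 ± 18.7 at day 28 (4.77, adjusted p = 0.00291), and the transcription factor Irf4 went from 3.31 ± 0.309 to 12.6 ± 0.00884 (1.94, adjusted p = 0.00129). Not called between days 5 and 28 were, among others, Pparg (0.22, adjusted p = 0.397 by edgeR) and Fabp4 (0.59, adjusted p = 0.111), both named after their values were seen. A list of 12 genes of macrophages that depend on CSF1 in resting tissue had 0 that rose, 3 that fell and a median of -0.48 between days 5 and 28, with 0 calls by edgeR or DESeq2 between days 5 and 14 and 4 genes at an unadjusted p under 0.05. Cbr2, a carbonyl reductase, fell from 266 ± 12.5 to 120 ± 20.7 (-1.14, adjusted p = 0.0237), and the folate receptor Folr2 from 369 ± 14.8 to 179 ± 22.9 (-1.04, adjusted p = 0.0186). In the same list Lyve1 was at 1.49 (adjusted p = 0.0803) and Timd4 at 0.80 (adjusted p = 0.0918), both named after their values were seen. Of the 61 genes of these lists, edgeR called 0 between days 14 and 28, 17 had an unadjusted p under 0.05 and DESeq2 called 4. Of the 14 genes named from the lists, Fyn, Ets2, Itgax and Irf4 remained called whichever library was left out, and the other 10 were lost without at least 1 library.

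**Figure D4:**
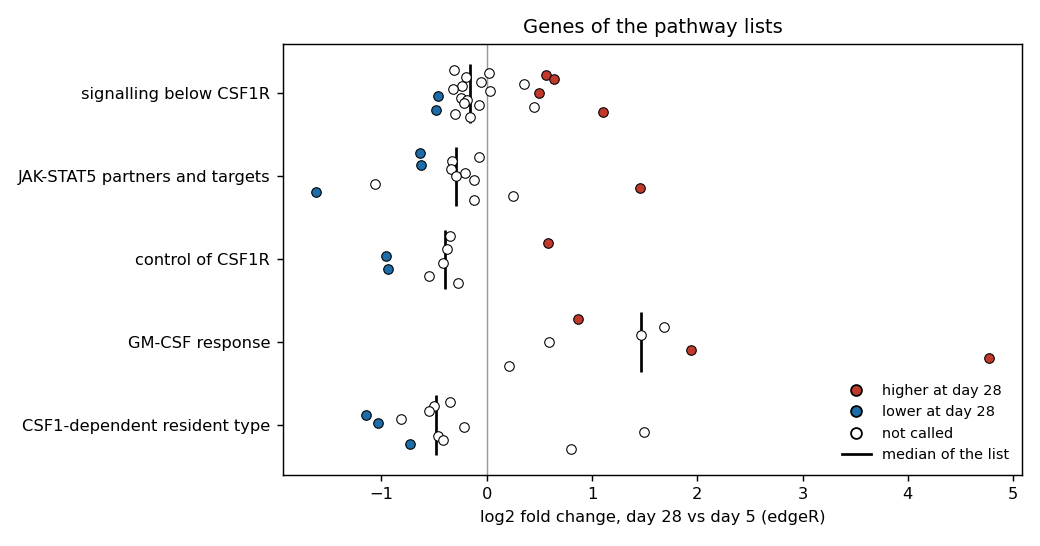
Log2 fold change from day 5 to day 28 (horizontal axis, edgeR) of each tested gene in 5 lists around the receptors; red points were called higher, blue points lower, open points were not called, and a bar marks the median of the list. The GM-CSF response list has its median at 1.46, and the other 4 medians lie between -0.48 and -0.16.

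Markers of other myeloid cells moved over the same days. All 6 monocyte markers were called between days 5 and 28, 5 lower and 1 higher: Ly6c2 fell from FPKM 78.9 ± 25.3 to 10.3 ± 2.78 (-2.90, adjusted p = 0.0206) and Plac8 from 245 ± 70.5 to 37.4 ± 8.74 (-2.69, adjusted p = 0.00638), whereas the chemokine receptor Ccr2 rose (0.74, adjusted p = 0.0259). Their summed FPKM was 715, 575 and 533 at day 5, 502 and 221 at day 14, and 277 and 232 at day 28, which is high in the day 5 libraries and day 14 replicate 1, where Csf3r was high as well, and low in the other 3. Their part in the fall of Csf3r was not tested. Of 12 neutrophil markers 11 had a row in the table and 7 were tested, with 0 higher and 2 lower between days 5 and 28, Mmp8 (-2.58, adjusted p = 0.00101) and Prtn3 (-2.37, adjusted p = 0.0470), and Elane was at or under the floor in all libraries. The summed neutrophil markers were 269 to 300 at day 5, 531 and 542 at day 14, and 264 and 121 at day 28, and most of the sum came from S100a8 and S100a9, with day 14 means of 190 and 314. Mmp8 had mean FPKM of 4.92, 1.62 and 0.811 on days 5, 14 and 28. Between days 5 and 14 the median log2 fold change of the 7 tested was 0.83, against 0.03 over all genes. Ltf (2.31), S100a9 (1.05, adjusted p = 0.0515 by edgeR), Retnlg (0.896), S100a8 (0.83) and Cxcr2 (0.79) were higher, and Prtn3 and Mmp8 were lower. By edgeR all 7 had an unadjusted p under 0.05, and only Mmp8 was called. DESeq2 called 3. Csf3r was highest at day 5 and Csf1 at day 14, and the part of neutrophils in either level was not tested.

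Of 8 fibroblast markers tested, edgeR called Postn and Col1a2 higher between days 5 and 14, where 4.78% of all genes tested were called. The median log2 fold change of the list was 1.74 against 0.03 over all genes, and all but Thy1 (-0.29) were above 0. By edgeR 7 had an unadjusted p under 0.05, and DESeq2 called 3. The summed FPKM was 76.0, 36.5 and 29.3 at day 5, 233 and 86.1 at day 14, and 40.1 and 61.2 at day 28. Thy1, the gene of the antigen used to remove fibroblasts, had mean FPKM of 1.32, 1.08 and 0.752 on days 5, 14 and 28. Fibroblasts are known to make CSF1, and their part in the level of Csf1 was not tested. Between days 5 and 28, 1 of 8 fibroblast markers was called, Postn (1.99, adjusted p = 0.0185).

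The remaining markers set the frame for the receptors. Of 10 macrophage markers 3 fell and 0 rose between days 5 and 28, among them Fcgr1 (FPKM 162 ± 8.28 to 48.2 ± 4.50, -1.73, adjusted p = 0.00210) and the F4/80 gene Emr1 (410 ± 54.2 to 202 ± 9.46, -1.01, adjusted p = 0.00650). The third was the sort antigen gene Cd14 (FPKM 2766 ± 206 to 1616 ± 259, -0.76, adjusted p = 0.0145 by edgeR). Cd14 was also called lower from day 5 to 14 (-0.75, adjusted p = 0.0357 by edgeR). Csf1r, like the remaining macrophage markers, was not called between days 5 and 28. Of 6 dendritic cell markers 1 rose, Ccr7 (1.43, adjusted p = 0.0400), with sums of 8.18 to 13 at day 5, 10.8 and 24.9 at day 14, and 19.8 and 30.4 at day 28. Of 5 endothelial markers tested, Kdr and Pecam1 fell (-3.02, adjusted p = 0.00290, and -1.80, adjusted p = 0.0145) and Tek, at a mean FPKM of at most 0.186 on any day, rose. Eosinophil, basophil and mast cell markers summed to at most 5.83 FPKM, with Epx, Fcer1a, Ms4a2 and Mcpt8 at or under the floor throughout, and 1 of 2 tested rose, Siglec5 (1.85, adjusted p = 0.0105). The 1 Schwann cell marker tested, Mbp, rose from 11 ± 0.631 to 18.4 ± 1.68 (0.75, adjusted p = 0.0296). Of the 14 marker genes named as the largest called changes between days 5 and 28, Fcgr1, Mmp8 and Kdr remained called whichever library was left out. The other 11 were lost without at least 1 library. The call of Ccr7 was also lost by DESeq2 (adjusted p = 0.0676).

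**Figure D5:**
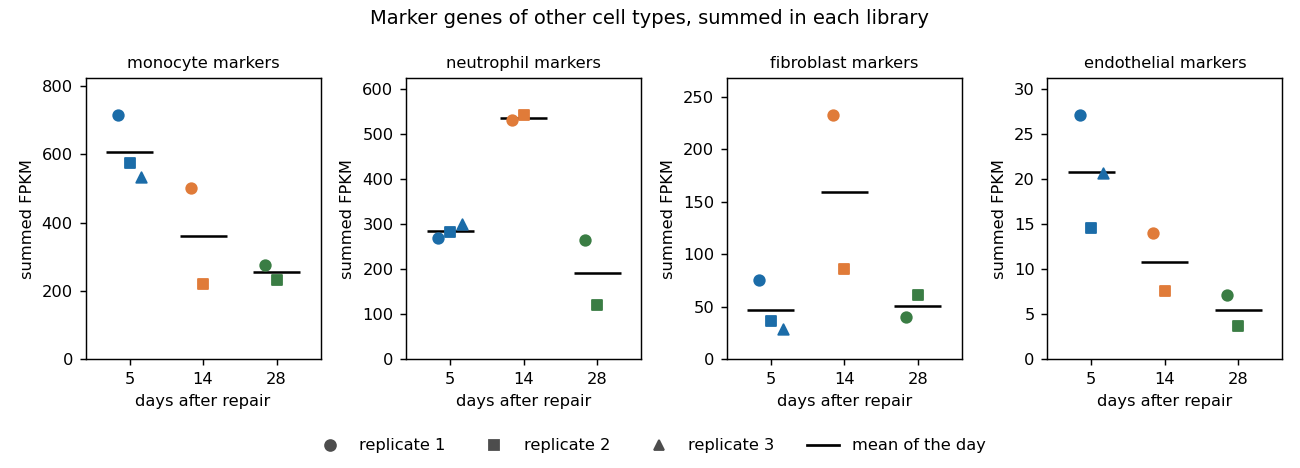
Summed FPKM (vertical axes, from 0) of marker genes of 4 other cell types against days after repair; points are libraries and lines the mean of the day. Monocyte sums lie at 533 to 715 at day 5 and at 232 and 277 at day 28, neutrophil sums are highest at day 14 (531 and 542), and the 2 day 14 libraries differ in fibroblast sums (233 and 86.1).

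The genes whose levels ran most like each member over the 7 libraries were sought among the 7556 tested genes whose mean FPKM reached 5, by Pearson's r of log2(FPKM + 1), as a description over libraries that share their days. Csf1 was closest to Themis2 (r = 0.979), Kxd1 (0.970) and the myeloid receptor gene Treml4 (0.957). Themis2 had mean FPKM of 23.2, 40.7 and 25.3 on days 5, 14 and 28, which is high at day 14 like Csf1. Csf1r was closest to Nenf (0.976), Chd3 (0.972) and Gm12942 (0.968), and Csf2ra to Tacc1 (0.993), Hltf (0.989) and Coa6 (0.987). Csf3r was closest to Aoah (0.996), which encodes an enzyme that inactivates lipopolysaccharide, P2rx4 (0.995), which encodes an ATP-gated channel, and Spon1 (0.992). Csf2rb was closest to Bcl2a1d (0.988), Tex10 (0.983) and Lrrc8b (0.975), and Csf2rb2 to Mpp5 (0.997), Rab8b (0.995) and Atp6v1d (0.989). The paralogs shared none of these nearest genes, while their r with each other was 0.897.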

How the data were processed

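The authors trimmed the reads with cutadapt 1.8, mapped them to mm10 with TopHat2 2.0.13 and quantified genes with Cuffdiff 2.2.1, per the labels. They deposited expected counts, the fragments cuffdiff estimated per gene, of which 1.49% of the values above 0 were not whole (tolerance 1e-06). In the deposited scaled signal each library's fragments are multiplied by 1 factor, which served as an alternative scaling. The authors also deposited FPKM, adjusted for transcript length and library size. Strand and the handling of reads that fit several places are not given in the sources used here. The authors' quantification failed in 8 values of 4 genes, none a member.

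Expected counts were rounded and fitted with edgeR 4.0.16 in R 4.3.3 (TMM, expression filter by day, quasi-likelihood test, day as the only factor, 4 residual degrees of freedom). The alternatives were DESeq2 1.42.0, other scalings, no filter, limma 3.58.1 on log2 FPKM with a pseudocount of 1 or 0.1, fits on 2 days, a replicate block and leaving out each library. The libraries held 18027190 to 35247116 fragments. The floor of 3 fragments covers counting error only, and p-values measure the spread between these libraries.

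Python 3.11.15 with pandas 2.3.3, numpy 2.4.6, Biopython 1.88 and matplotlib 3.10.9 was used for tables, sequences and plots. Of 145 list genes 144 matched the table, 141 by symbol. Spi1 and Adgre1 are named Sfpi1 and Emr1 there, and Siglecf was matched to Siglec5 through a synonym that other genes also carry. Gene positions are those of GENCODE on GRCm38, the build of mm10. The named genes were every member and every other family gene, from each list the 2 genes that rose most and the 2 that fell most among those called between days 5 and 28, and the 3 most alike genes per member. Col1a2, Thy1, S100a8, S100a9, Cxcr2, Retnlg, Ltf, Cd14, Itgam, Fcgr3, Lyve1, Timd4, Pparg and Fabp4 fell outside this rule and were named after their values were seen. The members and the lists were chosen with earlier results of these data known.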

Additional observations from a re-analysis of the deposited data

How the results depend on the processing

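Of 270 recomputed log2 fold changes of the members (18 comparisons under 15 alternatives), 266 kept their direction. The 4 that turned were not called before or after. Without day 14 replicate 2, Csf3r from day 5 to 14 was 0.043 and Csf2rb2 from day 14 to 28 was -0.11. Csf2rb from day 5 to 28 was -0.046 with the replicate block and -0.043 without day 5 replicate 3. With 1 library left out, these 3 ran from -0.59 to 0.043, from -0.11 to 0.57 and from -0.043 to 0.15. For the other family genes and the list genes named by the rule, 539 values were recomputed, none turned, and 108 lost their call. From day 5 to 14, 614 genes were called by edgeR, 1392 by DESeq2, 1429 with no expression filter, 252 and 277 by limma with pseudocounts of 1 and 0.1, 315 with the 2 days alone, and 52 to 1728 with 1 library left out. From day 14 to 28 the 8 calls became 346, 390, 0, 0 and 0 in the same order, and 0 to 629 with 1 library left out. From day 5 to 28 the 1960 calls ran from 452 to 2746 with 1 library left out. Members called numbered 1 to 5 from day 5 to 14, 0 to 2 from day 14 to 28 and 0 to 2 from day 5 to 28 with 1 library left out. DESeq2 and the fit with no filter each called 2 members from day 14 to 28.

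The replicate block left 6, 0 and 735 genes called from day 5 to 14, 14 to 28 and 5 to 28, with 2 residual degrees of freedom. It called 0 members from day 5 to 14, where Csf1 was at 1.12 (adjusted p = 0.0658), and kept Csf2ra and Csf3r from day 5 to 28 (adjusted p = 0.0314 and 0.0306). Deviations of libraries with the same number correlated at 0.111, 0.0542 and -0.054 over 7613 genes for days 5 and 14, 5 and 28, and 14 and 28. No pairing by number was visible, but with only 2 libraries on days 14 and 28 these values cannot exclude one. The change of Csf1r from day 5 to 28 (0.11) was smaller than its SE of 0.12.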
